A study of Mus musculus with 10 samples.

Results

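Neutrophil transcripts were followed in the hearts of endotoxin-treated mice as 10 genes chosen by symbol: S100a8, S100a9, Ngp, Camp, Mmp8, Mmp9, Retnlg, Hdc, Csf3r and Cxcr2. Each had 1 row in the table of 30074 genes, and all 10 had a mean of at least 0.5 FPKM over the 10 libraries, the minimum for testing. FPKM is the number of sequenced fragments or reads per kilobase of gene, scaled to the size of the library, so levels can be compared between genes. The LPS+ART group held 5 wild-type C57BL/6 hearts from male mice that had received bacterial endotoxin, lipopolysaccharide (LPS), and the antimalarial drug artesunate. The artesunate dose was 50 mg/kg, injected into the peritoneum 10 min ahead of LPS and again at 4 h. The LPS+Vehicle group held 5 hearts of the same strain, genotype and sex after LPS and vehicle. The mice were 8 to 12 weeks old and weighed about 25 g, and the design sets the assessment of the heart at 24 h after LPS. All 10 hearts had received LPS, and untreated hearts were not analysed here, so no value below is set against an unstimulated heart.

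Neutrophils are short-lived granulocytes that leave the bone marrow for the blood and enter inflamed tissue. They build their granules in a fixed order while they mature in the marrow: primary granules first, then secondary granules with Ngp, Camp, Mmp8 and lactoferrin, then gelatinase granules with Mmp9, while the calcium-binding pair S100a8 and S100a9 fills the cytosol. Granulocyte colony-stimulating factor, read by Csf3r, drives their production and release, and the chemokines read by Cxcr2 draw them out of the marrow and into tissue. In whole-heart RNA these transcripts come from cells inside vessels as well as from cells in the tissue, and the labels do not say whether blood was washed out. Fewer cells of a type and less RNA per cell cannot be told apart in such bulk samples.

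The library sizes behind the FPKM values, worked out from their steps, were 30684056 to 36679402 reads in LPS+ART against, in LPS+Vehicle, 29980900 to 54222272, and 3 reads in a gene of 1 kb correspond to 0.0553 to 0.1 FPKM. Most genes were lower in LPS+ART in the values as deposited: the median log2 fold change of 13314 genes tested was -0.27, and 0.02 after median-ratio scaling. On the second principal component of all genes tested, LPS+ART replicates 3 and 4 stood at -20.2 and -16.3, apart from the other LPS+ART hearts at 12.8 to 15.3. LPS+Vehicle replicate 3 was at -13.2 and the other LPS+Vehicle hearts at -2.45 to 8.94. This component held 8% of the variance and the first held 75.1%. LPS+Vehicle replicates 2 and 5 resembled each other closely. With reads halved, as mates of a pair were probably counted apart, their chi-square over 14165 genes was 1.76 per degree of freedom. The other pairs within a group gave 13.6 to 47.9. LPS+Vehicle replicates 2 and 5 thus differed by more than sampling noise and were kept as 2 libraries, which does not show that they came from 2 animals.

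The 10 transcripts did not move as a block. Hdc and Ngp were higher in LPS+ART, Csf3r and Mmp8 were lower, and the other 6 did not pass the test, which was limma on log2(FPKM + 1) with p-values adjusted over all 13314 genes. Against the background of all genes, 2 of 10 members were called higher where 11.8% of all genes were, and 2 of 10 were called lower where 52.9% were. After median-ratio scaling, Hdc and Ngp were higher and Csf3r alone lower, beside 29.9% of all genes higher and 30.3% lower. After cyclic loess, which removes a trend with expression level, Hdc, Ngp and Camp were higher and no member was lower, also at an unadjusted p under 0.05, beside 29% of all genes higher and 28.7% lower. The median log2 fold change of the 10 members was 0.44 as deposited and 0.69 after scaling. Camp entered the test through its level in LPS+ART and Cxcr2 through its level in LPS+Vehicle, each having a mean under 0.5 FPKM in the other group. Group means hide a wide spread between hearts: the coefficient of variation was larger in LPS+ART for 10 of 10 members, against 70.1% of all genes tested.

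The promoters of the members that passed the test are shown because these genes lie on both sides of the comparison. They are the 250 bases before and 50 after the annotated start, taken from RefSeq on GRCm38.p6, a later build than the mm9 named for the deposited values, and 9 of the 10 members had an entry. Capitals mark matches, on either strand, to TTGCNNAA, a core of the site bound by C/EBP factors, and to GAGGAAG, a core of the site bound by PU.1; both factor families are known for their part in making granulocytes. The 2 motifs share no position in these windows.
Ngp, chr9:110419558-110419857, plus strand: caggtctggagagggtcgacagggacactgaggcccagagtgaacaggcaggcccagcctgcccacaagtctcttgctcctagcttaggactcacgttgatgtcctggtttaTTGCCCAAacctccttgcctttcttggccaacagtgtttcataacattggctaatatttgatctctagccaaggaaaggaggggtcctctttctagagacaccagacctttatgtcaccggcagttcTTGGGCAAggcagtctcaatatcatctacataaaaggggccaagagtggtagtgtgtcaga
Hdc, chr2:126618629-126618928, minus strand: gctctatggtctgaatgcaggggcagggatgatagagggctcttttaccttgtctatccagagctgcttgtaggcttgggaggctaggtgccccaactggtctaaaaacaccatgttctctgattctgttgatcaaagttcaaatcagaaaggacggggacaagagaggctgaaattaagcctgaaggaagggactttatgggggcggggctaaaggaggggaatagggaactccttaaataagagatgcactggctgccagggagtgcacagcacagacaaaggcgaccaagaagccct
Csf3r, chr4:126024409-126024708, plus strand: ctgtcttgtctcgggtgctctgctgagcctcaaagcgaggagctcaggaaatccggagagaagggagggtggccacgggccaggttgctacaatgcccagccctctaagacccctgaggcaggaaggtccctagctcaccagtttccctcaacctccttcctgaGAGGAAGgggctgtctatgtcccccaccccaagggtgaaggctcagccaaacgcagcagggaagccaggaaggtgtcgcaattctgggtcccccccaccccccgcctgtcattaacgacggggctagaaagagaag
Mmp8, chr9:7558179-7558478, plus strand: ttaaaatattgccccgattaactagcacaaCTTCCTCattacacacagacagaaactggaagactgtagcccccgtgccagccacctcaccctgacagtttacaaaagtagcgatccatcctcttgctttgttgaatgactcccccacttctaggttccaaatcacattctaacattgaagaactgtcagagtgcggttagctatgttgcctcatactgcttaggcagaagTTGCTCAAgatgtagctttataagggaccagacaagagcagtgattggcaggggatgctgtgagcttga
The promoter of Ngp held 2 matches to TTGCNNAA, beginning 138 and 11 bases before the start. That of Mmp8 held 1 match to TTGCNNAA at 19 bases and 1 to GAGGAAG at 220 bases before the start, and that of Csf3r held GAGGAAG at 86 bases. The window of Hdc held neither. Among the others, S100a9 and Retnlg held TTGCNNAA and S100a8 held GAGGAAG. In all, 4 of 9 member promoters held TTGCNNAA, which 10.8% of 32851 promoters of the same length hold, and 3 of 9 held GAGGAAG, which 13.6% hold. Matches were found in members called higher, called lower and not called.

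S100a8 and S100a9 encode the subunits of calprotectin, the most abundant cytosolic protein complex of neutrophils, which binds calcium, zinc and manganese. S100a9 was the most abundant of the 10 transcripts in both groups, at 19.0, 19.4, 156, 78.4 and 31.5 FPKM in LPS+ART replicates 1 to 5 and at 25.5, 37.6, 16.1, 27.0 and 33.8 FPKM in LPS+Vehicle replicates 1 to 5. S100a8 stood at 7.43, 7.42, 59.0, 34.7 and 14.7 FPKM in LPS+ART and at 11.1, 17.7, 5.87, 12.4 and 13.4 FPKM in LPS+Vehicle. In both genes replicates 3 and 4 of LPS+ART lay above every LPS+Vehicle heart, replicates 1 and 2 lay below 4 of the 5, and the groups overlapped. The mean of S100a9 was 60.9 ± 58.6 FPKM in LPS+ART and 28.0 ± 8.28 FPKM in LPS+Vehicle (n = 5 each, SD), and that of S100a8 was 24.7 ± 22.2 FPKM in LPS+ART and 12.1 ± 4.28 FPKM in LPS+Vehicle. The log2 fold changes of 0.65 (SE 0.52) for S100a9 and 0.60 (SE 0.52) for S100a8 did not pass the test, with limma adjusted p = 0.29 and 0.329. Without LPS+ART replicates 3 and 4 they were -0.24 and -0.26 (limma adjusted p = 0.448 and 0.496).

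The subunits kept nearly the same proportion in every heart. The ratio of S100a8 to S100a9 FPKM averaged 0.413 ± 0.0403 in LPS+ART against 0.425 ± 0.0445 in LPS+Vehicle (n = 5 each, SD). Its difference between groups was -0.04 on the log2 scale, with a two-sided exact permutation p of 0.698 and 0.833 after adjustment over 3 ratios. The spread of 8.24-fold in S100a9 between the highest and the lowest LPS+ART heart was shared by S100a8, whose spread was 7.95-fold. In LPS+Vehicle the same spreads were 2.33-fold and 3.02-fold.

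Ngp and Camp encode proteins of secondary granules: the neutrophilic granule protein and the cathelicidin antimicrobial peptide. Ngp stood at 6.19, 4.63, 59.2, 20.3 and 14.9 FPKM in LPS+ART and at 3.77, 5.35, 1.63, 5.87 and 4.67 FPKM in LPS+Vehicle. Of the LPS+ART hearts, 4 of 5 lay above every LPS+Vehicle heart, and replicate 2 lay within their range. Its mean was 4.94 times as high in LPS+ART (21.0 ± 22.3 FPKM) as in LPS+Vehicle (4.26 ± 1.67 FPKM; n = 5 each, SD), and its median 3.18 times as high. The log2 fold change of 1.61 (SE 0.55) was the largest among the 10 members on the log2(FPKM + 1) scale and passed the test with limma adjusted p = 0.0232. By limma-voom on recovered reads that of Camp was larger, at 2.63 against 1.89 for Ngp. The log2 fold change of Ngp was 1.12 without LPS+ART replicate 3 (limma adjusted p = 0.0333), and 0.79 without replicates 3 and 4 (limma adjusted p = 0.103). Leaving out LPS+ART replicate 4 alone, or LPS+Vehicle replicate 3 alone, also ended the call, with limma adjusted p = 0.0536 and 0.0578.

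Camp, at 4 to 94 reads in LPS+ART against 0 to 8 in LPS+Vehicle, was near the limit of these libraries. It stood at 0.362, 0.169, 4.04, 1.43 and 0.647 FPKM in LPS+ART and at 0.257, 0.155, 0, 0.352 and 0.238 FPKM in LPS+Vehicle. The 0 reads of LPS+Vehicle replicate 3 allow up to 0.073 FPKM at a floor of 3 reads, which covers counting error only. LPS+ART replicate 2 lay within the range of LPS+Vehicle and the other 4 above it. The means were 1.33 ± 1.59 FPKM in LPS+ART and 0.200 ± 0.132 FPKM in LPS+Vehicle, and the log2 fold change of 0.74 (SE 0.33) did not pass the test (limma adjusted p = 0.0638). It passed without LPS+ART replicate 1 or 2 (limma adjusted p = 0.0411 and 0.023) and by limma-voom on recovered reads (log2 fold change 2.63, adjusted p = 0.0423). Without LPS+ART replicate 3 its mean fell below the minimum and it was not tested.

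Mmp8 and Mmp9 encode neutrophil collagenase and gelatinase B, proteases that leave the granules as the cell crosses tissue. Mmp8 stood at 0.735, 0.580, 2.89, 1.65 and 0.764 FPKM in LPS+ART and at 2.38, 3.89, 1.64, 1.95 and 4.08 FPKM in LPS+Vehicle. Replicates 3 and 4 of LPS+ART reached the range of LPS+Vehicle, and the other 3 lay below it. The mean was 1.32 ± 0.971 FPKM in LPS+ART and 2.79 ± 1.12 FPKM in LPS+Vehicle (n = 5 each, SD). Mmp8 fell by 0.74 on the log2 scale (SE 0.27, limma adjusted p = 0.0276), and without LPS+ART replicates 3 and 4 by 1.11 (limma adjusted p = 0.00197). Those replicates were the highest LPS+ART hearts in Mmp8, so the p-value without them shows dependence on them and does not test a fall. After median-ratio scaling it was at -0.49 and after cyclic loess at -0.39, and not called (limma adjusted p = 0.155 and 0.254). The call also ended when LPS+ART replicate 1, 2 or 5 or LPS+Vehicle replicate 2 or 5 was left out, with limma adjusted p between 0.0616 and 0.069. With LPS+Vehicle replicates 2 and 5 averaged, Mmp8 was at -0.63 and not called (limma adjusted p = 0.0685).

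Mmp9 stood at 0.876, 0.840, 3.69, 2.47 and 1.38 FPKM in LPS+ART and at 1.11, 1.28, 0.641, 1.48 and 1.62 FPKM in LPS+Vehicle. LPS+ART replicates 3 and 4 were above every LPS+Vehicle heart and the groups overlapped. Its means were 1.85 ± 1.22 FPKM in LPS+ART and 1.23 ± 0.381 FPKM in LPS+Vehicle, and its log2 fold change of 0.28 (SE 0.25) did not pass the test (limma adjusted p = 0.347).

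Within each heart the balance of the proteases differed between the groups. The ratio of Mmp8 to Mmp9 FPKM was 0.839, 0.69, 0.782, 0.667 and 0.554 in LPS+ART and 2.15, 3.03, 2.56, 1.32 and 2.51 in LPS+Vehicle. Mmp9 was thus the more abundant of the pair in every LPS+ART heart, Mmp8 in every LPS+Vehicle heart, and the groups did not overlap. The ratio averaged 0.707 ± 0.110 in LPS+ART against 2.32 ± 0.639 in LPS+Vehicle, a difference of -1.67 on the log2 scale (two-sided exact permutation p = 0.00794, the smallest that 5 against 5 hearts allow, and 0.0238 after adjustment over 3 ratios). Without LPS+ART replicates 3 and 4 the difference in the ratio Mmp8 to Mmp9 was -1.70, where the exact permutation p of 0.0179, the smallest that 3 against 5 hearts allow, came to 0.0536 after adjustment. A ratio within a library does not depend on scaling between libraries, and it shows unequal change of the pair rather than the change of either.

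Retnlg encodes resistin-like gamma, a secreted protein of mouse neutrophils and marrow. It stood at 1.16, 1.40, 11.8, 4.21 and 3.77 FPKM in LPS+ART and at 6.63, 6.97, 2.77, 6.69 and 7.70 FPKM in LPS+Vehicle. LPS+ART replicate 3 was the highest and LPS+Vehicle replicate 3 the lowest of its group; the other 4 LPS+ART hearts lay below the other 4 LPS+Vehicle hearts. The means were 4.47 ± 4.33 FPKM in LPS+ART and 6.15 ± 1.94 FPKM in LPS+Vehicle, and the log2 fold change of -0.64 (SE 0.43) did not pass the test (limma adjusted p = 0.211). This rested on LPS+ART replicate 3: without it the log2 fold change was -1.03 and passed (limma adjusted p = 0.0158).

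Hdc encodes histidine decarboxylase, the enzyme that makes histamine. Neutrophils induce this enzyme, and mast cells and basophils contain it as well. It stood at 7.01, 5.64, 9.95, 9.96 and 8.57 FPKM in LPS+ART and at 3.06, 2.80, 2.25, 3.34 and 2.92 FPKM in LPS+Vehicle. Every LPS+ART heart lay above every LPS+Vehicle heart, as 7.54% of all genes tested did. The means were 8.22 ± 1.89 FPKM in LPS+ART and 2.87 ± 0.404 FPKM in LPS+Vehicle (n = 5 each, SD), a ratio of 2.86, and the log2 fold change was 1.23 (SE 0.14, limma adjusted p = 2.44e-05). It was 1.05 without LPS+ART replicates 3 and 4 (limma adjusted p = 0.000186). Hdc varied less than the granule transcripts between LPS+ART hearts, with a coefficient of variation of 23.0% against 106% for Ngp.

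Markers of mast cells and basophils did not share one direction. Of 9 listed, 2 could be tested: Kit, the stem cell factor receptor, was higher in LPS+ART, at 2.09 ± 0.326 FPKM against 1.08 ± 0.227 FPKM in LPS+Vehicle (limma adjusted p = 0.000357), and the transcription factor Gata2 was lower, at 3.06 ± 0.504 FPKM in LPS+ART against 5.21 ± 0.705 FPKM in LPS+Vehicle (limma adjusted p = 0.000504). Both are also made by other cells. The summed level of the 9 was 5.2 to 6.97 FPKM in LPS+ART and 5.26 to 7.82 FPKM in LPS+Vehicle. Most of it came from Kit and Gata2, so it says little of the rest. Defining markers were near 0: Ms4a2, a chain of the IgE receptor, had 0 to 2 reads in LPS+ART against 0 in LPS+Vehicle, and the basophil protease Mcpt8 had 0 to 1 read in LPS+ART against 0 in LPS+Vehicle. The mast cell protease Cpa3 had 5 to 22 reads in LPS+ART against 8 to 13 in LPS+Vehicle. Of the rest, all too low to test, Mcpt4 averaged 0.285 FPKM in LPS+ART against 0.101 FPKM in LPS+Vehicle. In LPS+ART and LPS+Vehicle, Fcer1a averaged 0.164 and 0.073 FPKM, Cma1 0.161 and 0.11 FPKM, and Tpsb2 0.126 and 0.155 FPKM.

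Csf3r encodes the receptor for granulocyte colony-stimulating factor. It stood at 0.828, 0.904, 1.36, 1.14 and 0.929 FPKM in LPS+ART and at 1.86, 1.81, 2.20, 1.86 and 1.88 FPKM in LPS+Vehicle. Every LPS+ART heart lay below every LPS+Vehicle heart, as 42.5% of all genes tested did. The means were 1.03 ± 0.218 FPKM in LPS+ART and 1.92 ± 0.158 FPKM in LPS+Vehicle (n = 5 each, SD), and Csf3r fell by 0.53 on the log2 scale (SE 0.08, limma adjusted p = 0.000192). After median-ratio scaling it was at -0.30 and still called (limma adjusted p = 0.0194), and after cyclic loess at -0.20 and not called (limma adjusted p = 0.0874).

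Csf3r is also made by monocytes and macrophages, and markers of resident macrophages were read beside it. Of 10 listed and tested, 8 were lower in LPS+ART, against 52.9% of all genes, and 1, Timd4, was higher, having entered the test through its level in LPS+ART; after median-ratio scaling 7 were lower, against 30.3%, and 2 higher. In the values as deposited their summed level was 51.0 to 89.7 FPKM in LPS+ART and 135 to 213 FPKM in LPS+Vehicle. None of them was at 0 in any heart. LPS+Vehicle replicate 3, which had the highest Csf3r of all hearts, was also the highest of all hearts in 7 of the 10 markers; Mrc1, Lyve1 and Timd4 were highest in other hearts. The share of all genes tested that were highest in this heart was not counted, so no background stands beside the 7 markers. The part of these cells in the Csf3r difference was not tested.

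Cxcr2 encodes the receptor for the CXC chemokines that draw neutrophils into tissue. It stood at 0.180, 0.105, 1.25, 0.385 and 0.411 FPKM in LPS+ART and at 0.586, 0.635, 0.417, 0.941 and 0.946 FPKM in LPS+Vehicle. LPS+ART replicate 3 was the highest of all hearts, and the other 4 LPS+ART hearts lay below every LPS+Vehicle heart. Its means were 0.466 ± 0.458 FPKM in LPS+ART and 0.705 ± 0.232 FPKM in LPS+Vehicle, and the log2 fold change of -0.26 (SE 0.18) did not pass the test (limma adjusted p = 0.223). Without LPS+ART replicate 3, the highest heart, it was -0.42 and passed (limma adjusted p = 0.01), which shows dependence on that heart only. The ratio of Cxcr2 to Csf3r averaged 0.406 ± 0.311 in LPS+ART against 0.373 ± 0.134 in LPS+Vehicle, with a two-sided exact permutation p of 0.833, also after adjustment.

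Single hearts carried much of the spread. LPS+ART replicate 3 was the highest of all 10 hearts in 7 members, namely S100a8, S100a9, Ngp, Camp, Mmp9, Retnlg and Cxcr2, a rank it held in 7.1% of all genes tested. Within LPS+ART it was the highest in 9 members, all but Hdc, and in 17.3% of all genes. LPS+Vehicle replicate 3 was the lowest of its group in 9 members, all but Csf3r, and in 24.3% of all genes. The summed level of the 10 members was 43.7, 41.0, 309, 155 and 77.6 FPKM in LPS+ART and 56.3, 78.3, 33.6, 61.9 and 71.2 FPKM in LPS+Vehicle, and most of each sum came from S100a9 and S100a8.

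Markers of other blood and monocyte-derived cells were read in the same hearts. Of 5 erythroid genes, 4 were higher in LPS+ART, beside 11.8% of all genes, and none lower; their summed level was 56.6 to 129 FPKM in LPS+ART and 19.9 to 66.5 FPKM in LPS+Vehicle, and no gene of the list was at 0. Hbb-bs, a beta-globin gene whose reads may be shared with its near copy Hbb-bt, averaged 47.8 ± 15.6 FPKM in LPS+ART and 23.5 ± 12.1 FPKM in LPS+Vehicle (limma adjusted p = 0.0153). Of 6 platelet genes 3 were tested and none was called by limma, with summed levels of 11.9 to 14.4 FPKM in LPS+ART and 8.44 to 20.2 FPKM in LPS+Vehicle. Of 8 inflammatory monocyte genes 7 were tested and 1 was called, beside 11.8% of all genes higher and 52.9% lower. This was Ly6c2, a surface antigen of these monocytes, higher in LPS+ART at 1.48 ± 0.368 FPKM against 0.812 ± 0.203 FPKM in LPS+Vehicle (limma adjusted p = 0.00457). Ccr2 of the same list was too low to test and lay the other way. It averaged 0.0993 ± 0.0393 FPKM in LPS+ART against 0.213 ± 0.0706 FPKM in LPS+Vehicle, from 12 to 36 against 32 to 91 reads. The part of blood in the vessels in the differences between groups was not tested.

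**Figure D1:**
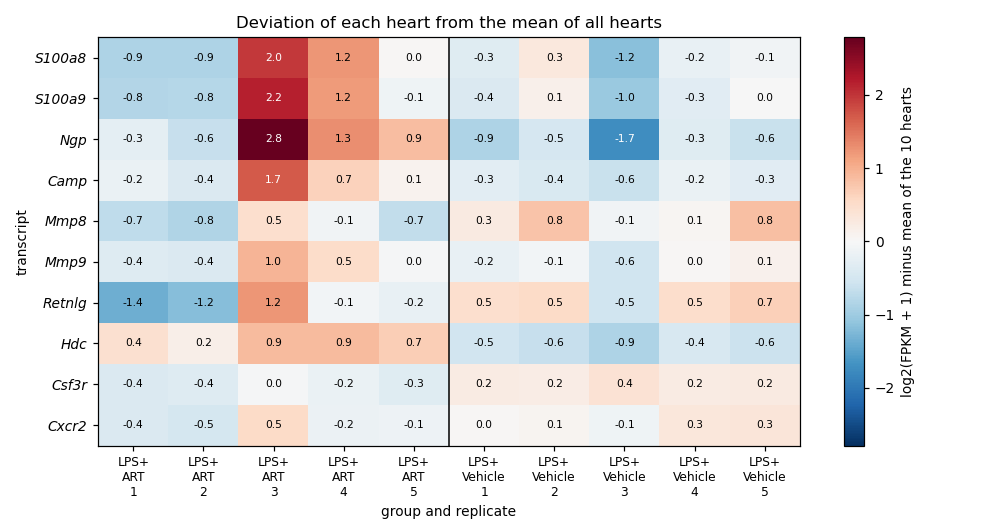
Deviation of log2(FPKM + 1) from the mean of the 10 hearts for each transcript (rows) and heart (columns, LPS+ART left of the black line and LPS+Vehicle right of it), with red above and blue below that mean. The column of LPS+ART replicate 3 is red in all rows but Csf3r, the columns of LPS+ART replicates 1 and 2 are blue in all rows but Hdc, and the column of LPS+Vehicle replicate 3 is blue in all rows but Csf3r.

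How far replicate 3 stood out depended on the transcript. Its level over the mean of LPS+ART replicates 1, 2 and 5 was 10.3 for Camp, 6.92 for Ngp, 6.71 for S100a9, 5.98 for S100a8, 5.6 for Retnlg, 5.39 for Cxcr2, 4.17 for Mmp8 and 3.58 for Mmp9. For Csf3r and Hdc it was 1.54 and 1.41. Replicate 4 was the second highest of its group in 8 members, and its level over the same mean ran between 1.29 for Csf3r and 3.64 for Camp. The members whose groups did not overlap, Hdc and Csf3r, were thus the pair with the smallest excess in replicate 3.

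Leaving out LPS+ART replicates 3 and 4 changed which members were called. Hdc was then the member higher in LPS+ART, and Mmp8, Retnlg, Csf3r and Cxcr2 were lower, beside 11.4% of all genes higher and 49.1% lower. Retnlg fell by 1.24 on the log2 scale (limma adjusted p = 0.00903) and Cxcr2 by 0.47 (limma adjusted p = 0.0125). Replicate 3 was the highest of all hearts in both genes. Their p-values without it therefore show dependence on that heart and do not test a fall. The same limit holds for Mmp8 and Csf3r, in which replicates 3 and 4 were the highest LPS+ART hearts. The change of sign in S100a8, S100a9 and Mmp9, which was at -0.12 (limma adjusted p = 0.518), did not pass the test.

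**Figure D2:**
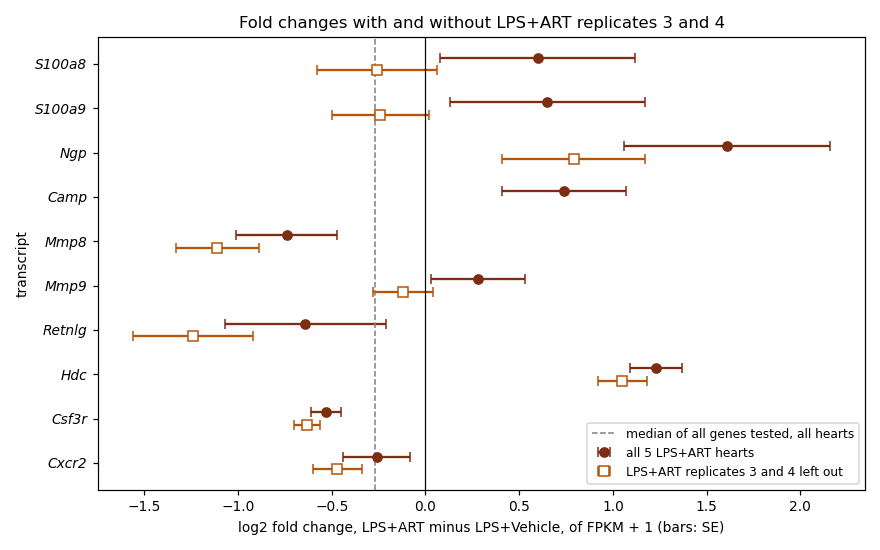
Log2 fold change of FPKM + 1, LPS+ART minus LPS+Vehicle (horizontal axis), for each transcript, with error bars of 1 SE; filled circles use all hearts and open squares leave out LPS+ART replicates 3 and 4, while the dashed line marks the median of all genes tested. Ngp at 1.61 and Hdc at 1.23 lie to the right, the squares of S100a8, S100a9 and Mmp9 cross to the left of 0, and Camp has no square because it fell below the minimum level.

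Setting each transcript against S100a9 in the same heart gives values that do not depend on scaling between libraries. These values were chosen after the levels were seen and are given without a test. Ngp was at 32.7, 23.9, 37.9, 25.9 and 47.2% of S100a9 in LPS+ART and at 14.8, 14.2, 10.1, 21.7 and 13.8% in LPS+Vehicle. Every LPS+ART heart was above every LPS+Vehicle heart, as for 0.353% of the 13313 other genes tested. In the values as deposited this share was 7.54%. S100a9 itself varied 8.24-fold between LPS+ART hearts, so genes that do not vary with it tend to overlap between groups on this scale. The 0.353% is therefore no fair background for a gene that varies with S100a9.

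Retnlg was at 6.1, 7.24, 7.56, 5.36 and 12.0% of S100a9 in LPS+ART and at 26.0, 18.5, 17.1, 24.8 and 22.8% in LPS+Vehicle. Cxcr2 was at 0.49 to 1.31% in LPS+ART and at 1.69 to 3.48% in LPS+Vehicle, and Mmp8 was at 1.85 to 3.88% in LPS+ART and at 7.23 to 12.1% in LPS+Vehicle. For these 3 and for Csf3r, every LPS+ART heart was below every LPS+Vehicle heart, as for 12.7% of the other genes tested. The limit given with Ngp holds for this share too, which was 42.5% in the values as deposited. On this scale LPS+ART replicate 3, which had the highest S100a9, Retnlg and Cxcr2 of all hearts, lay within the range of the other LPS+ART hearts for Retnlg and Cxcr2 and was the lowest of them for Mmp8 and Csf3r. The groups overlapped for S100a8, Camp, Mmp9 and Hdc.

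**Figure D3:**
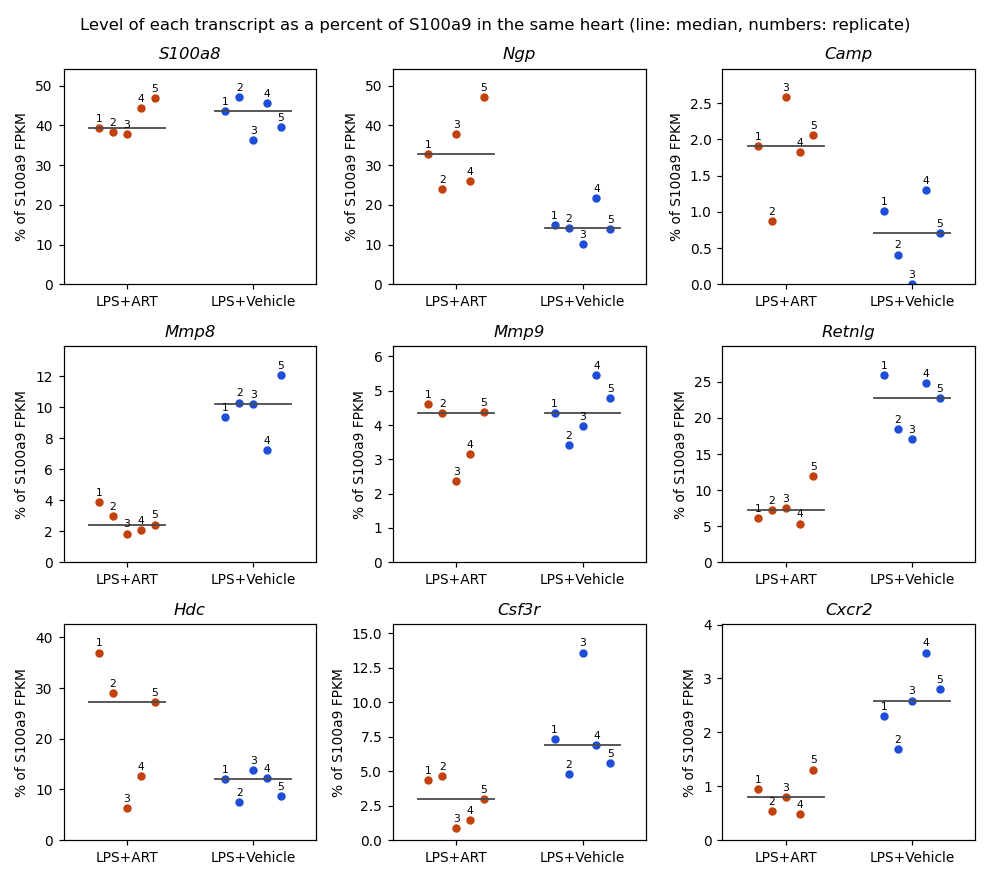
FPKM of the other 9 transcripts as a percent of S100a9 FPKM in the same heart (vertical axis), for LPS+ART (left) and LPS+Vehicle (right), with lines at the median and points numbered by replicate. Ngp lies higher in every LPS+ART heart, with medians of 32.7% in LPS+ART and 14.2% in LPS+Vehicle, while Mmp8, Retnlg, Csf3r and Cxcr2 lie lower in every LPS+ART heart and S100a8 stays between 36.4% and 47.2% in all hearts.

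The order of the levels was not the same in the 2 groups. By median FPKM in LPS+ART it was S100a9 (31.5), Ngp (14.9), S100a8 (14.7), Hdc (8.57), Retnlg (3.77), Mmp9 (1.38), Csf3r (0.929), Mmp8 (0.764), Camp (0.647) and Cxcr2 (0.385). Ngp lay above S100a8 in 2 of 5 LPS+ART hearts and Csf3r above Mmp8 in 3 of 5, so neither pair of neighbours was ordered beyond the spread. In LPS+Vehicle the order by median FPKM was S100a9 (27.0), S100a8 (12.4), Retnlg (6.69), Ngp (4.67), Hdc (2.92), Mmp8 (2.38), Csf3r (1.86), Mmp9 (1.28), Cxcr2 (0.635) and Camp (0.238). Mmp8 lay above Csf3r in 3 of 5 LPS+Vehicle hearts, and each other neighbour lay above the next in 4 or 5 hearts.

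The ligands of these receptors and the molecules that attach neutrophils to vessels were higher in LPS+ART for 7 of the 9 tested and lower for none, beside 11.8% and 52.9% of all genes, with a median log2 fold change of 1.02. Csf3, the ligand of Csf3r, averaged 71.1 ± 21.3 FPKM in LPS+ART and 7.69 ± 4.64 FPKM in LPS+Vehicle (n = 5 each, SD), a log2 fold change of 3.28 (limma adjusted p = 8.05e-05). By heart, Csf3 stood at 57.9, 65.2, 49.5, 104 and 78.9 FPKM in LPS+ART and at 4.76, 11.7, 1.02, 11.4 and 9.67 FPKM in LPS+Vehicle. Replicate 3 was thus the lowest of each group in Csf3, while in summed member level it was the highest of LPS+ART and the lowest of LPS+Vehicle, and LPS+ART replicate 4 had the highest Csf3. Cxcl1, a ligand of Cxcr2, averaged 111 ± 48.2 FPKM in LPS+ART and 14.6 ± 2.89 FPKM in LPS+Vehicle (log2 fold change 2.77, limma adjusted p = 6.96e-06). Cxcl2 rose by 2.69 on the log2 scale, Cxcl5 by 3.05 and Cxcl3 by 1.02, all of them ligands of the same receptor. Cxcl3 entered the test through its level in LPS+ART, at 1.57 ± 0.628 FPKM against 0.25 ± 0.167 FPKM in LPS+Vehicle. The ligands were thus higher in the group whose receptors were lower, for Csf3r, or not called, for Cxcr2.

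Of the attachment molecules, the selectins Selp and Sele rose by 0.94 and 0.59 on the log2 scale (limma adjusted p = 0.00686 and 0.00398); the call of Selp ended without LPS+ART replicates 3 and 4 (0.72, limma adjusted p = 0.0583). Icam1, the endothelial partner of the integrin chains Itgam and Itgb2, averaged 24.5 ± 3.48 FPKM in LPS+ART and 25.6 ± 2.48 FPKM in LPS+Vehicle; its log2 fold change was -0.07 (limma adjusted p = 0.586) and turned to 0.31 after median-ratio scaling (limma adjusted p = 0.0403) and to 0.13 after cyclic loess.

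Other granule genes gave few calls. Of 9 other secondary and tertiary granule genes, 7 were tested, none was higher and Lyz2, lysozyme, was lower (median log2 fold change -0.10). Of all genes, 11.8% were higher and 52.9% lower. Lyz2 is also made by macrophages, and its call ended without LPS+ART replicate 2 (limma adjusted p = 0.0511). After median-ratio scaling limma called no gene of the list, beside 29.9% of all genes higher and 30.3% lower. Ltf, lactoferrin, averaged 1.75 ± 2.38 FPKM in LPS+ART and 0.235 ± 0.0975 FPKM in LPS+Vehicle, with 5.88 FPKM in LPS+ART replicate 3 (log2 fold change 0.82, limma adjusted p = 0.0856); after cyclic loess it was called higher (1.06, limma adjusted p = 0.0433). It entered the test through its level in LPS+ART. Lcn2, lipocalin 2, which cardiac cells also make, was lowest of its group in that same heart, at 516 FPKM. The primary granule genes Mpo, Elane, Prtn3 and Ctsg, made at the promyelocyte stage, were too low to test, with 0 to 16 reads in LPS+ART against 0 to 6 in LPS+Vehicle.

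Among 17 other receptors and surface proteins tested of 20 listed, 1 was higher in LPS+ART and 9 were lower, shares near or below the 11.8% and 52.9% of all genes. After median-ratio scaling 3 were higher and 6 lower, beside 29.9% and 30.3% of all genes, and the median log2 fold change as deposited was -0.23, against -0.27 for all genes. Pirb, an inhibitory receptor of myeloid cells, averaged 3.75 ± 1.04 FPKM in LPS+ART and 9.50 ± 1.29 FPKM in LPS+Vehicle (log2 fold change -1.16, limma adjusted p = 4.48e-05). Fpr1, a receptor for formylated peptides, averaged 2.44 ± 1.16 FPKM in LPS+ART and 6.56 ± 2.18 FPKM in LPS+Vehicle (log2 fold change -1.15, limma adjusted p = 0.00117). Itgam and Itgb2, which encode the chains of the integrin Mac-1, fell by 1.06 and 0.84 on the log2 scale. Ltb4r1, the leukotriene B4 receptor, was the gene of the list that rose, by 0.39 (limma adjusted p = 0.0462), a call that held without LPS+ART replicate 1 or 2 or LPS+Vehicle replicate 4 and ended without any other single library. It also ended by limma-voom (adjusted p = 0.0519), with a pseudocount of 0.1 (limma adjusted p = 0.055), without the filter (limma adjusted p = 0.0992) and without LPS+ART replicates 3 and 4 together (limma adjusted p = 0.299). Ltb4r1 entered the test through its level in LPS+ART, averaging 0.93 ± 0.436 FPKM there against 0.455 ± 0.204 FPKM in LPS+Vehicle. Macrophages also express most genes of this list, and the values of their markers are given with Csf3r.

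Ly6g, the surface marker most specific to mouse neutrophils, was too low to test. It stood at 0.233, 0.136, 1.73, 0.638 and 0.116 FPKM in LPS+ART and at 0.069, 0, 0, 0.212 and 0.128 FPKM in LPS+Vehicle, from 4 to 50 reads in LPS+ART against 0 to 6 in LPS+Vehicle. Replicates 3 and 4 of LPS+ART were again the highest hearts.

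The NADPH oxidase, the enzyme of the neutrophil respiratory burst, was lower for 4 of 6 genes and higher for none, beside 52.9% of all genes lower, with a median log2 fold change of -0.43. After median-ratio scaling 2 of 6 were lower, beside 30.3% of all genes. Ncf4 fell by 0.73 and Ncf1 by 0.67 on the log2 scale (limma adjusted p = 0.000156 and 6.59e-05). Of 17 other neutrophil-enriched genes, 11 were tested, 3 were higher and 2 lower, and after scaling 5 were higher and 1 lower, against the same shares of all genes (median log2 fold change 0.23). Asprv1, a retroviral-like protease, averaged 3.21 ± 1.64 FPKM in LPS+ART and 0.663 ± 0.27 FPKM in LPS+Vehicle (log2 fold change 1.27, limma adjusted p = 0.000449), with no overlap between the groups. Acod1, which makes itaconate, rose by 0.77 (limma adjusted p = 0.000753), and G0s2, an inhibitor of lipolysis that fat-storing cells also make, fell by 2.14 (limma adjusted p = 2.21e-05). Gda, guanine deaminase, was at -0.26 (limma adjusted p = 0.0398) and turned to 0.11 after median-ratio scaling and 0.02 after cyclic loess; its call also ended without LPS+ART replicate 1, 2 or 5 or LPS+Vehicle replicate 1, 2 or 5. Wherever limma called 0 genes of a list in a direction in the values as deposited, 0 genes passed at an unadjusted p under 0.05 and limma-voom on recovered reads called 0 as well.

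**Figure D4:**
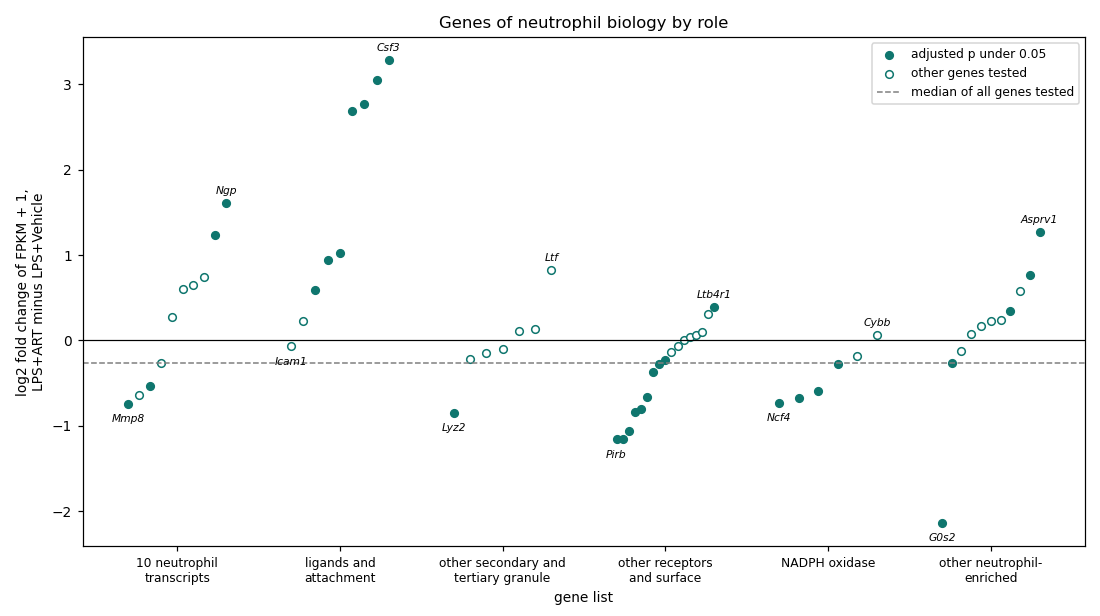
Log2 fold change of FPKM + 1, LPS+ART minus LPS+Vehicle (vertical axis), of every gene tested in 6 lists of neutrophil biology (horizontal axis), ordered within each list; filled points have limma adjusted p under 0.05 and the dashed line is the median of all genes tested. The ligands reach 3.28 with Csf3, while most other receptors lie below 0 down to -1.16 with Pirb and the 10 members lie between -0.74 and 1.61.

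The genes most like the members over the 10 hearts were Cd177, Il1r2, Wfdc21, Smad7 and Orm1, by the root-mean-square distance of log2(FPKM + 1), centred per gene, from the mean of the members. Their distances were 0.167, 0.208, 0.235, 0.236 and 0.249, against 0.13 for Mmp9, the nearest member, and 0.79 for Ngp, the farthest. Cd177, a neutrophil surface glycoprotein, stood at 0.135 to 2.44 FPKM in LPS+ART and 0.221 to 0.73 FPKM in LPS+Vehicle. It entered the test through its level in LPS+ART, as its mean in LPS+Vehicle was 0.491 FPKM. None of the 5 passed the test between groups, with limma adjusted p between 0.154 and 0.858. They were picked in these same hearts for their likeness to the mean of the members, so this result follows largely from the choice.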

How the data were processed

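Poly(A) RNA of 10 mouse hearts was sequenced from paired-end libraries, per the labels' protocols. Groups came from the treatment labels and replicate numbers from the titles. The submitters' processing notes name the build mm9; for the aligner, counter, annotation and strand setting, no name is given in the sources used here. The authors deposited FPKM values, judged from the values, since the header names samples only. They were not rescaled between libraries, and summed to 427020 ± 11557 in LPS+ART against 382668 ± 7627 in LPS+Vehicle (n = 5 each, SD). Of 30074 Ensembl identifiers, 29538 (98.2%) matched a symbol in GENCODE M21. With M21 exon lengths, 29005 genes (96.4%) gave whole reads within 0.01 read. Of read numbers from 1 to 4, 64.0% were even, so the mates of a pair were probably counted apart and reads are not independent; read floors cover counting error only. No member's exons overlap those of another M21 gene.

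The test was limma-trend (limma 3.58.1, R 4.3.3) on log2(FPKM + 1), keeping genes whose mean reached 0.5 FPKM, with group as the only term and Benjamini-Hochberg adjustment over all genes tested; a call is an adjusted p under 0.05. Fold changes on this scale understate the change of low genes. Ratios between members within a library were tested by two-sided exact permutation of the hearts. The scripts were tested on simulated data. Beyond the design's group sizes, nothing in the labels says that replicates are separate animals, so the p-values cover only the spread among these libraries, which may be technical. The members, gene lists and tests were chosen with earlier results of these data known. Named genes are the members, the ligands and attachment molecules, up to 2 called rises and 2 called falls of each list, and the 5 genes most like the members. The rule's genes are described in the text or counted in their list. Ltf, Lcn2, Ly6g, Myh6, Tnni3 and the marker genes too low to test were added after their values were seen. Promoter sequences are RefSeq's for GRCm38.p6. Alternatives were pseudocounts of 0.1 and 0.5, other minimums, median-ratio scaling, cyclic loess, leaving out each library or LPS+ART replicates 3 and 4 together, averaging LPS+Vehicle replicates 2 and 5, a replicate block, and limma-voom on recovered reads. Python 3.11.15 and matplotlib 3.10.9 drew the figures.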

Additional observations from a re-analysis of the deposited data

Results flagged for a closer look

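In each group of 5 hearts, the highest or lowest value was compared with the spread of the others, and a gap above 0.71 of the group's range was noted. This was done for 104 combinations of a named gene or ratio with a group, so Ltf and other genes added later were not checked. For normal, independent values chance alone notes about 1 in 20, a rate that FPKM of genes varying together need not follow. There were 8. LPS+ART replicate 3 was far above the rest of its group in Ngp (59.2 FPKM), Retnlg (11.8 FPKM), Cxcr2 (1.25 FPKM) and Cd177 (2.44 FPKM). LPS+Vehicle replicate 3 was far below its group in Retnlg (2.77 FPKM) and far above it in Csf3r (2.2 FPKM) and in Lyz2, lysozyme (94.8 FPKM). LPS+ART replicate 2 was far below its group in Ncf4, a subunit of the NADPH oxidase (0.57 FPKM). In 7 of the 8 the heart was replicate 3 of its group; replicates share a number in their titles only. LPS+Vehicle replicate 3 also had the largest library size, 54222272 reads.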

How the results depend on the processing

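Of 196 alternative values of the 10 members, 169 kept their direction and their side of the threshold, and of 773 for the other named genes 723 did. Hdc was called in 20 of 20 alternatives (log2 fold change 1.05 to 1.60), Csf3r in 19 and Ngp in 16, Mmp8 in 10, Camp in 5 of 17. Members called higher numbered 1 without a filter and without LPS+ART replicates 3 and 4, and 1 to 3 with a library left out in turn. Members called lower numbered 1 without a filter, after median-ratio scaling, with the replicate block and with LPS+Vehicle replicates 2 and 5 averaged, 4 without LPS+ART replicates 3 and 4, and 1 to 4 with a library left out. After cyclic loess limma called 0 members lower, with 0 at an unadjusted p under 0.05. Genes called numbered 3975 higher and 4034 lower after median-ratio scaling, 3856 and 3827 after cyclic loess, and 1401 to 1564 and 6530 to 7062 with a library left out. The difference in the ratio Mmp8 to Mmp9 was, on the log2 scale, -1.70 without LPS+ART replicates 3 and 4 (exact permutation, adjusted p = 0.0536 from the smallest p these splits allow, 0.0179) and -1.86 to -1.56 with a library left out. With the replicate block it was -1.67 (exact sign flips of 5 pairs, adjusted p = 0.188; their smallest p, 0.0625, cannot pass the threshold). For the ratio Cxcr2 to Csf3r it ran over -0.50 to 0.24, turning to 0.02, 0.24, 0.01 and 0.01 without LPS+ART replicate 1 or 2 or LPS+Vehicle replicate 4 or 5, and for the ratio S100a8 to S100a9 over -0.10 to 0.00. The ratio of Camp to Ngp has no value because Camp is at 0 in 1 library. Without LPS+ART replicates 3 and 4 the log2 fold change turned to -0.26 in S100a8, -0.24 in S100a9, -0.12 in Mmp9, -0.29 in Il1r2, -0.26 in Wfdc21 and -0.10 in Orm1. With a library left out it ran over -0.164 to 0.199 in Il1r2, below 0 without LPS+ART replicate 3 or LPS+Vehicle replicate 3, and over -0.058 to 0.444 in Wfdc21, below 0 without LPS+ART replicate 3. It turned to -0.003 in Cd177 by limma-voom. Median-ratio scaling turned Icam1 to 0.31, Gda to 0.11 and Tnnt2 to 0.14, and cyclic loess turned Icam1 to 0.13 and Gda to 0.018. The cause of these changes was not tested. Same-numbered libraries correlated at -0.07 to 0.182 in their deviations from the group means, and 2 of 5 LPS+ART libraries were nearest to their own number, so the numbers were not taken as pairs. Depth limits Camp and Cxcr2, at 0 to 94 and 10 to 117 reads.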

Other observations

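Genes of other cell types were counted in the same hearts. Of 7 cardiomyocyte genes 4 were higher and 1, Tnnt2, was lower in LPS+ART as deposited, beside 11.8% and 52.9% of all genes. After median-ratio scaling 5 were higher and none lower, beside 29.9% and 30.3%. After cyclic loess Actc1, Myl2 and Tnni3 were higher. Myh6 (-0.33, limma adjusted p = 0.00631) and Tnnt2 (-0.41, limma adjusted p = 0.00179) were then lower, so the counts depended on the scaling. The summed level of the 7 was 8320 to 10300 FPKM in LPS+ART and 7090 to 7760 FPKM in LPS+Vehicle. Of 5 fibroblast genes 3 were lower, namely Col1a1, Col1a2 and Pdgfra, and of 5 endothelial genes 3 were lower and 1, the tight junction gene Cldn5, was higher, beside 52.9% of all genes lower and 11.8% higher. After median-ratio scaling 3 fibroblast genes were lower, and 2 endothelial genes were higher and 2 lower, beside 29.9% and 30.3%. The endothelial gene Kdr, lower as deposited, was then at 0.03 and not called (limma adjusted p = 0.838). With a library left out in turn, it was called in 1 fit. The 7 genes of T and B lymphocytes were all too low to test, with summed levels of 0.482 to 0.645 FPKM in LPS+ART and 0.333 to 0.472 FPKM in LPS+Vehicle.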
